A study of Mus musculus with 4 samples.

Results

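The genes described here build, unwind, copy and supply the DNA replication fork. They are 38 mouse genes, taken by their GENCODE symbols from the 54752 gene identifiers of a count table made from whole heart RNA. Of these, 11 act in licensing of replication origins, 22 at the fork and 5 in nucleotide supply. The hearts came from wild type mice and from mice with a mutation of Carm1, which encodes an arginine methyltransferase that modifies histones and other nuclear proteins. All were labelled postnatal day 14, and the study's own text calls them neonatal. There were 2 libraries of each genotype. The labels give the genotypes as wild type and Carm1 mutant. The allele, whether the mutation is confined to a cell type, the strain, the sex, and whether a library was 1 animal or a pool are not stated in the labels. Nothing in the labels says that replicates came from separate animals, so the p-values below measure the spread between these libraries.

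A cell licenses its origins before it copies its DNA. The origin recognition complex, with CDC6 and CDT1, loads the ring-shaped MCM2-7 helicase onto DNA, and geminin (Gmnn) blocks CDT1 once S phase has begun. CDC45, the GINS complex and MCM10 then turn the loaded ring into an active helicase. DNA polymerase alpha with its primase starts each strand, polymerases epsilon and delta extend it, the PCNA clamp tethers them, and replication factor C loads the clamp. FEN1 and DNA ligase 1 join the lagging-strand fragments, and chromatin assembly factor 1 puts histones on the new DNA. Ribonucleotide reductase, thymidylate synthase, thymidine kinase and dUTPase provide the deoxynucleotides and keep uracil out of them. In the mouse heart most cardiomyocytes leave the cell cycle in the weeks after birth, while other cells of the heart go on dividing.

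The libraries held between 11677604 and 22217442 counts, and mutant replicate 2 was the smallest. Levels below are in CPM, read counts scaled to a common library total after TMM, a correction for differences in library composition. Carm1 itself stood at 45.9 and 52.3 CPM in wild type replicates 1 and 2 and at 35.8 and 31.8 CPM in mutant replicates 1 and 2. Its log2 fold change was -0.54 (SE 0.19), and it did not pass the test (edgeR false discovery rate, FDR, 0.114). The mutated stretch of the gene is not named in the labels, so this level is no full check of the genotype. Carm1 passed without wild type replicate 1 (FDR 0.0201) and without wild type replicate 2 (FDR 0.0352). It did not pass with mutant replicate 1 left out (FDR 0.579) or with mutant replicate 2 left out (FDR 0.678). With library totals in place of TMM its log2 fold change was -0.16 (FDR 0.626). The 4 Y-linked genes summed to 1769 and 2236 counts in the wild type and to 7 and 0 in the mutant libraries, and Xist had 12 and 15 against 8116 and 3921 counts. The wild type libraries were therefore male and the mutant libraries female, and genotype and sex cannot be told apart in any comparison below. The deviation of wild type replicate 1 from the other libraries ran against exon length (Spearman rho -0.30 across genes, which are not independent replicates). That of wild type replicate 2 and mutant replicate 1 ran with it (0.25 and 0.18), and that of mutant replicate 2 was near 0 (-0.015).

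The promoters of these genes were searched for short sequence words. E2F factors are textbook regulators of S phase genes, and 4 forms of their site were searched on both strands from 250 bases before to 50 bases after each RefSeq start (TTTCCCGC, TTTCGCGC, TTTGCCGC and TTTGGCGC). RefSeq's promoter table (GRCm38.p6) held an entry for 30 of the 38 genes, and 13 of these 30 carried such a word, against 2.605% of 27025 genes. The word was present in 7 of 9 licensing genes, in 6 of 16 fork genes and in 0 of 5 nucleotide genes. CCAAT was present in 17 of 30, against 41.058% of all genes, and the cell cycle homology words TTTGAA or TTCGAA were present in 6 of 30, against 21.661%. The members' windows were also richer in G and C (median 59.25% against 53.0% in the 200 bases before the start) and in CG dinucleotides (median 15 against 5), and the part of base composition in these shares was not tested. A match of letters is a description and not a bound site. For each of the 13 genes the E2F word nearest the start is shown to let the forms be compared. Each was read on the strand that spells the word, which is in capitals, with up to 10 bases on each side. Coordinates are GRCm38.p6, and the sign in parentheses is the strand printed.
Orc1, chr4:108579417-108579444 (-): ggagaaaactTTTCGCGCcactaaccga
Cdc6, chr11:98908003-98908030 (-): ccccaggcgaTTTCCCGCtctccaccgg
Cdt1, chr8:122568037-122568064 (+): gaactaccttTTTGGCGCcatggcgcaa
Mcm3, chr1:20820276-20820303 (+): cttcccaagtTTTCCCGCcacggaagtt
Mcm5, chr8:75109350-75109377 (-): ggctggacgtTTTGGCGCgaaagttctt
Mcm6, chr1:128359735-128359762 (-): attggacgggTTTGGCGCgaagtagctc
Mcm7, chr5:138171850-138171877 (-): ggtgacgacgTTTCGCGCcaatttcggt
Gins3, chr8:95633508-95633535 (-): tcaaactcgcTTTCCCGCgccgcactcg
Pola1, chrX:93632276-93632303 (+): cgggagtgcaTTTGGCGCcctgtgatga
Pold1, chr7:44548766-44548786 (+): gctTTTCCCGCcacaagatac
Pole2, chr12:69228163-69228190 (+): atgttcgcgaTTTGGCGCcaccgccgac
Rfc3, chr5:151651191-151651218 (+): acagtagagtTTTCCCGCgagcgcgaaa
Lig1, chr7:13278842-13278869 (-): gccacacagaTTTCGCGCgcactttggc

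The word in capitals was TTTGGCGC in 5 of the 13 fragments, TTTCCCGC in 5 and TTTCGCGC in 3. In the Mcm5 and Rfc3 fragments TTTCGCGC also occurs on the other strand. It is left in lower case in Rfc3, and in Mcm5 it overlaps the word in capitals. Mcm3, Mcm5, Mcm6, Mcm7 and Rfc3 held more than 1 E2F word in the stretch searched. The word nearest the start covered the first transcribed base of Rfc3 and lay 32 bases after the start of Cdt1. In Mcm5 it began at position -149, counted from the start base as 0. Among the genes that rose in the mutant libraries and had an entry, 4 of 8 carried an E2F word, against 9 of the other 22. These 22 include Fen1, which was too low to test. The genes that rose without such a word included Chaf1b, Rrm2 and Mcm10. Their 200 bases before the start are printed to show windows that lack it, with CCAAT or its complement in capitals. These 3 were chosen from the 6 called genes with the smallest FDR and an entry because the windows held at most 13 bases of an annotated exon.
Chaf1b, chr16:93883701-93883900 (+): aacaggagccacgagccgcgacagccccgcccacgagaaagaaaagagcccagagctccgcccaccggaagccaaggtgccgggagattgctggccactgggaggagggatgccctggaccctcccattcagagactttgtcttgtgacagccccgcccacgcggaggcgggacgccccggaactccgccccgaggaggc
Rrm2, chr12:24708054-24708253 (+): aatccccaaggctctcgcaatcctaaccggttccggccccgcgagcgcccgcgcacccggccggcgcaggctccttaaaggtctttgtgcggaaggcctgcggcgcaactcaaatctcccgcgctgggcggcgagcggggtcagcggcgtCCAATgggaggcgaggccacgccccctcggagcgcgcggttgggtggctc
Mcm10, chr2:5012792-5012991 (-): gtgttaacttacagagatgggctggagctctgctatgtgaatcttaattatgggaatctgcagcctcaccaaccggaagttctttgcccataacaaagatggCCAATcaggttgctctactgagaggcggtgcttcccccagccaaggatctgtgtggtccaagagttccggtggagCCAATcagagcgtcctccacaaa

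The Rrm2 window had 71.5% G and C with 27 CG dinucleotides, the Chaf1b window 68.0% with 16, and the Mcm10 window 51.0% with 4. Chaf1b carried none of the words searched there, Rrm2 carried CCAAT 1 time and Mcm10 carried it 2 times.

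In the mutant libraries 9 of the 37 tested replication genes rose and 0 fell, by edgeR's quasi-likelihood test at an FDR under 0.05 over 15283 genes. Over all genes tested 2.79% rose, 4.58% fell and 7.37% did either. Among the 10015 genes whose mean level lay in the members' range of 0.471 to 26.2 CPM, 3.5% rose. At an unadjusted p under 0.05, 18 members were higher and 2 were lower in the same edgeR fit, where 13.1% and 14.7% of all genes tested were. Their median log2 fold change was 0.66, against 0.02 over all genes tested and 0.10 over the genes in that range of level. Both mutant libraries lay above both wild type libraries in 28 members and below them in 2, where 30.3% and 28.7% of all genes did so. With library totals these were 35 and 0 members, beside 56.0% and 12.1% of all genes. With library totals in place of TMM the median over all genes tested moved from 0.02 to 0.41, and 1189 genes rose and 206 fell, against 426 and 700. On that scale 7.78% of all genes rose, 15 members rose and 0 fell, and all 9 were among them. Together the 38 genes summed to 251.5 and 208.2 CPM in the wild type libraries and to 297.6 and 358.5 CPM in the mutant libraries. Whole heart RNA does not tell apart more cells of a type from more RNA per cell.

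**Figure D1:**
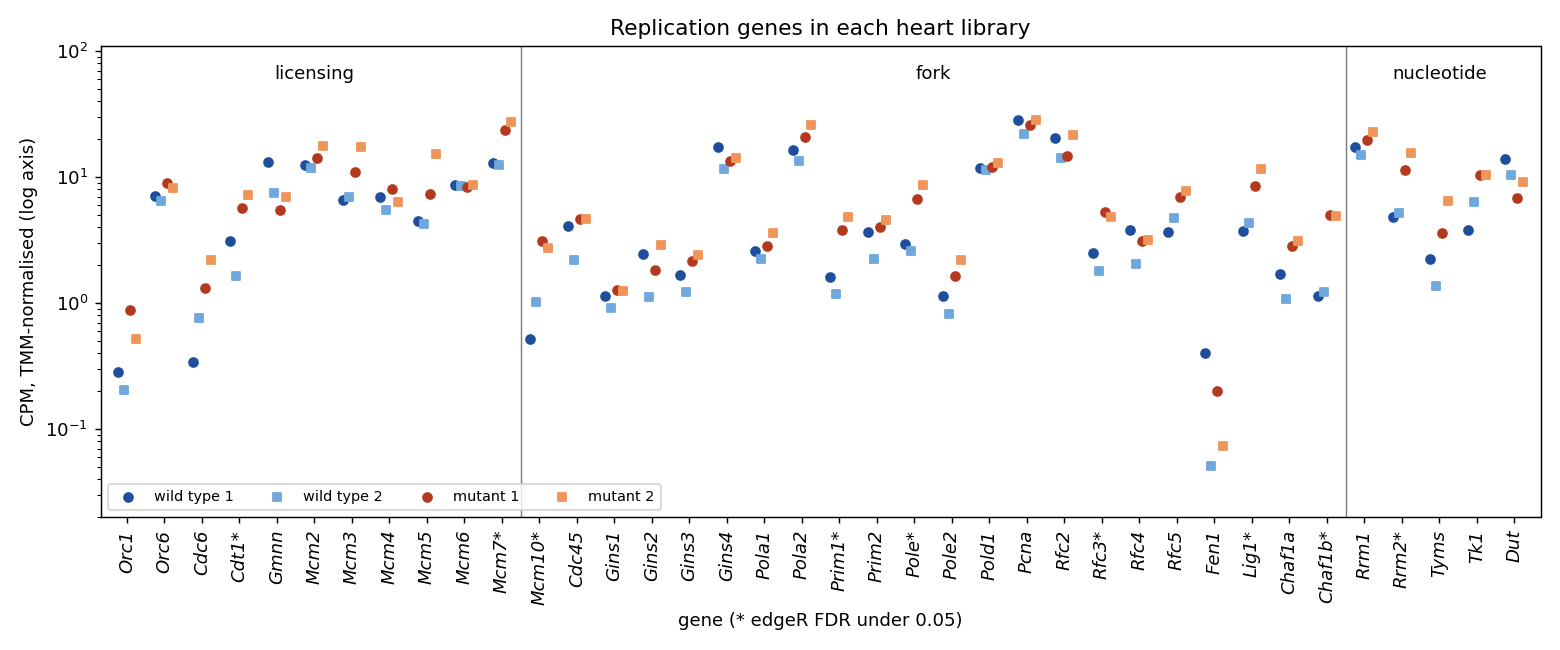
Level of each of the 38 genes in each library, in TMM-scaled CPM on a log axis, ordered by step, with an asterisk for an edgeR FDR under 0.05. Chaf1b shows tight pairs near 1.2 and 5.0 CPM, Mcm6 shows 4 coinciding points, and Gmnn and Dut are the 2 genes whose mutant points both lie below the wild type points on this scale, though not with library totals.

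By step, in licensing 2 of 11 rose, with a median log2 fold change of 0.997 and a range from -0.73 to 1.61. At the fork 6 of 21 tested genes rose, with a median of 0.63 and a range from -0.07 to 2.06. In nucleotide supply 1 of 5 rose, with a median of 1.03 and a range from -0.62 to 1.47. The differences between steps were not tested. Within the fork, the median was 0.48 for 6 helicase activation genes, 0.63 for 7 polymerase and primase genes, 0.10 for 5 clamp and clamp loader genes and 1.58 for 2 chromatin assembly genes. Leaving out a mutant library ended calls. Without mutant replicate 2, 1 of the 9 genes, Chaf1b, was still called, and without mutant replicate 1 there were 6 of the 9 still called. Over all genes 1.40% rose in the former fit and 1.52% in the latter. Without wild type replicate 1 all 9 were still called and 15 members in all rose, while 5.52% of all genes rose. Without wild type replicate 2 all 9 were also still called, 15 members rose and 2, Gmnn and Dut, fell. In that fit 15.95% of all genes rose and 19.5% fell, so calls were more frequent over the whole table too.

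**Figure D2:**
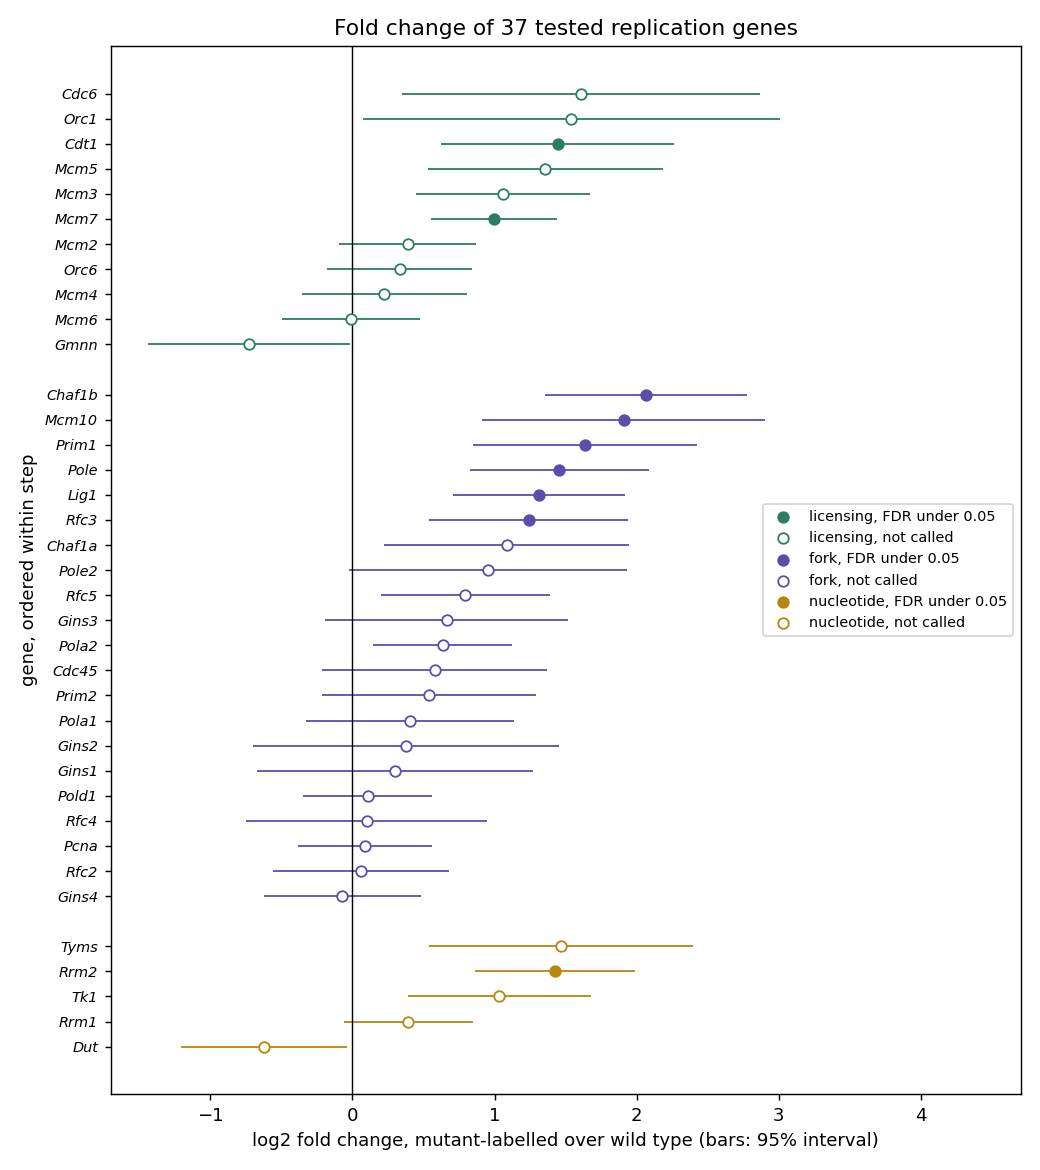
Log2 fold change, mutant-labelled over wild type, of the 37 tested genes with 95% intervals, by step. Filled points have an edgeR FDR under 0.05. The 9 filled points lie between 0.997 and 2.06, and the widest intervals belong to Orc1 and Cdc6, the genes with the fewest counts among those tested.

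Among the factors that load the helicase, Cdt1, the licensing factor that brings MCM2-7 to the origin, rose. Cdt1 (chromosome 8, 122568015 to 122573554, plus strand, GRCm38) stood at 3.09 and 1.63 CPM in the wild type libraries and at 5.66 and 7.22 CPM in the mutant libraries. Both mutant libraries lay above both wild type libraries, whose own values were 3.09 and 1.63. Its log2 fold change was 1.44 (SE 0.35, edgeR FDR 0.0496). It lost the call without mutant replicate 2 (edgeR FDR 0.163) and with DESeq2's size factors (FDR 0.0541). Gmnn, the inhibitor of Cdt1, was at 13.1 and 7.51 CPM in the wild type and at 5.50 and 6.995 CPM in the mutant libraries. Both mutant values were the lower ones on this scale, with wild type replicate 2 close to them. With library totals the Gmnn groups overlapped, at 10.5 and 7.07 CPM against 6.21 and 8.14 CPM (log2 fold change -0.31). Its log2 fold change of -0.73 (SE 0.31, edgeR FDR 0.172) was the lowest of the licensing genes and did not pass the test, although it did without wild type replicate 2 (-1.12, edgeR FDR 0.00314). Without wild type replicate 1 it was -0.30 (edgeR FDR 0.481). Cdc6, the ATPase that joins the origin recognition complex before loading, was at 0.343 and 0.766 CPM against 1.32 and 2.21 CPM. It had the highest log2 fold change in licensing, 1.61 (SE 0.54), and did not pass the test (edgeR FDR 0.107), from 6 and 15 counts against 33 and 30. With each library left out in turn Cdc6 ranged from 1.13 to 2.26, and it was highest without wild type replicate 2. Orc1, the origin recognition subunit whose level follows the cell cycle, had 5 and 4 counts against 22 and 7, too few to narrow its interval (log2 0.07 to 3.01). Orc6, the smallest origin recognition subunit, was at 7.15 and 6.49 against 8.97 and 8.17 CPM (log2 fold change 0.33, SE 0.22).

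The 6 genes of the MCM2-7 ring, which assembles with equal parts of each subunit, did not move alike. Mcm7 (chromosome 5, 138164583 to 138172422, minus strand) stood at 13.0 and 12.5 CPM in the wild type and at 23.7 and 27.2 CPM in the mutant libraries. The 2 libraries of each genotype lay close together and far from those of the other. Mcm7 rose by 0.997 on the log2 scale (SE 0.19, edgeR FDR 0.0264), and lost the call without mutant replicate 1 (edgeR FDR 0.105) and without mutant replicate 2 (edgeR FDR 0.241). Mcm6 was at 8.69 and 8.53 against 8.41 and 8.69 CPM. All 4 libraries coincided, and its log2 fold change was -0.01 (SE 0.21, 95% interval -0.50 to 0.47). Mcm5 was at 4.52 and 4.24 CPM against 7.34 and 15.4 CPM, and Mcm3 at 6.58 and 6.95 CPM against 11.05 and 17.4 CPM. In both genes mutant replicate 2 was well above mutant replicate 1. The log2 fold changes were 1.36 for Mcm5 (SE 0.36, edgeR FDR 0.059) and 1.06 for Mcm3 (SE 0.27, edgeR FDR 0.0524), so both lay just above the threshold. The log2 fold changes of Mcm5 and Mcm3 were 1.81 and 1.36 without mutant replicate 1. They fell to 0.74 and 0.70 without mutant replicate 2. Mcm2 was at 12.4 and 11.8 against 14.1 and 17.7 CPM, and Mcm4 at 6.92 and 5.52 against 8.02 and 6.41 CPM. Neither passed the test, and the Mcm4 groups overlapped.

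Each gene's share of the 6 genes' summed transcript level was taken per kilobase of exon, with all annotated exons of a gene joined. The makeup of the protein ring was not measured. Mcm7 gave 25.8% and 26.1% of the 6 genes' summed level in the wild type and 33.1% and 29.5% in the mutant libraries. The share of Mcm6 was 16.3% and 16.9% against 11.1% and 8.94%, and that of Mcm5 was 9.92% and 9.83% against 11.3% and 18.5%. The share of Mcm3 was 15.4% and 17.1% against 18.2% and 22.2%, and that of Mcm4 16.9% and 14.2% against 13.8% and 8.57%. The shares of Mcm2 were 15.6% and 15.8% against 12.5% and 12.2%. Shares of 1 sum are not independent of each other, and with 2 libraries of each genotype an exact 2-sided permutation test cannot give a p below 0.333. The Mcm7 transcript shares 7.25% of its exon length with Ap4m1 on the opposite strand, and no label says whether reads were counted by strand.

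Of the 6 genes that activate the loaded helicase, Mcm10 rose and the GINS genes and Cdc45 did not pass the test. Mcm10 (chromosome 2, 4989714 to 5012791, minus strand), which binds the MCM ring and polymerase alpha, stood at 0.515 and 1.02 CPM in the wild type and at 3.11 and 2.72 CPM in the mutant libraries. These came from 9 and 20 counts against 78 and 37, and both mutant libraries were above both wild type libraries. Mcm10 rose by 1.91 on the log2 scale (SE 0.43, edgeR FDR 0.0398). The call was lost without mutant replicate 1 (edgeR FDR 0.17) and without mutant replicate 2 (edgeR FDR 0.0716). Cdc45, the helicase cofactor, was at 4.06 and 2.20 against 4.67 and 4.64 CPM, with a log2 fold change of 0.58 (SE 0.34, edgeR FDR 0.31). With each library left out in turn Cdc45 ranged from 0.16 to 1.07, and it was highest without wild type replicate 1. Of the 4 GINS subunits, Gins3 was at 1.66 and 1.23 against 2.15 and 2.43 CPM (log2 fold change 0.66) and Gins1 at 1.14 and 0.919 against 1.28 and 1.25 CPM (0.30). The Gins2 groups overlapped (2.46 and 1.12 against 1.83 and 2.87 CPM), and 67.3% of the exon length of Gins2 lies opposite Gse1. Gins4 was at 17.3 and 11.6 against 13.3 and 14.2 CPM, and its log2 fold change of -0.07 (SE 0.24, edgeR FDR 0.873) was the lowest at the fork.

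All 7 polymerase and primase genes were higher in both mutant libraries than in both wild type libraries, and 2 of them rose. Of all genes tested, 30.3% were higher in this way and 2.79% rose. Prim1 (chromosome 10, 128015168 to 128030037, plus strand), the catalytic subunit of primase that lays down RNA primers, stood at 1.60 and 1.17 CPM in the wild type and at 3.83 and 4.86 CPM in the mutant libraries. Its log2 fold change was 1.64 (SE 0.34, edgeR FDR 0.0316), and without mutant replicate 2 it was 1.46 (edgeR FDR 0.172). Pole (chromosome 5, 110286306 to 110337474, plus strand), the catalytic subunit of the leading-strand polymerase epsilon, was at 2.97 and 2.60 CPM against 6.70 and 8.69 CPM. Pole changed by 1.45 on the log2 scale (SE 0.27, edgeR FDR 0.0251), and without mutant replicate 2 it was 1.26 (edgeR FDR 0.131). In both genes the gap between the genotypes was wider than the spread within either. Their partners did not pass the test. Prim2, the regulatory primase subunit, was at 3.66 and 2.25 against 4.03 and 4.57 CPM (log2 fold change 0.54, SE 0.33), and Pole2, the second subunit of polymerase epsilon, at 1.14 and 0.817 against 1.64 and 2.21 CPM (0.95, SE 0.42). The catalytic polymerase alpha gene Pola1 was at 2.57 and 2.25 against 2.83 and 3.61 CPM (0.41, SE 0.32). Its B subunit gene Pola2 was at 16.5 and 13.4 against 20.8 and 25.7 CPM (0.63, SE 0.21, edgeR FDR 0.103). With each library left out in turn Pola2 ranged from 0.45 to 0.78. Pold1, the catalytic subunit of the lagging-strand polymerase delta, was nearly level at 11.8 and 11.5 against 12.1 and 13.0 CPM (0.11, SE 0.20, 95% interval -0.35 to 0.56).

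The clamp and most of its loader showed no change that passed the test. Pcna, the clamp, whose level per kilobase was second to Gins4 in the wild type and the highest of the members in the mutant libraries, was at 28.7 and 22.1 CPM in the wild type and at 25.7 and 28.3 CPM in the mutant libraries. The groups overlapped, and the log2 fold change was 0.09 (SE 0.20, 95% interval -0.38 to 0.56). Rfc3, a small subunit of replication factor C, was the loader gene that rose. Rfc3 (chromosome 5, 151642756 to 151651242, minus strand) stood at 2.52 and 1.79 CPM against 5.26 and 4.86 CPM, a log2 fold change of 1.24 (SE 0.30, edgeR FDR 0.0496). The Rfc3 call was lost without mutant replicate 1 (edgeR FDR 0.274), without mutant replicate 2 (edgeR FDR 0.166) and with DESeq2's size factors (FDR 0.0533). Rfc5, another small subunit, was at 3.66 and 4.75 against 6.94 and 7.73 CPM (0.80, SE 0.26, edgeR FDR 0.0956). With each library left out in turn Rfc5 ranged from 0.61 to 0.96. Rfc2 (20.4 and 14.1 against 14.6 and 21.6 CPM) and Rfc4 (3.83 and 2.04 against 3.11 and 3.17 CPM) overlapped between the genotypes. In both of these, wild type replicate 1 was above wild type replicate 2.

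Behind the fork, Lig1 and Chaf1b rose. Lig1 (chromosome 7, 13277283 to 13311433, plus strand), the ligase that seals lagging-strand fragments, stood at 3.72 and 4.34 CPM in the wild type and at 8.53 and 11.6 CPM in the mutant libraries. Lig1 rose by 1.31 on the log2 scale (SE 0.26, edgeR FDR 0.0284), and without mutant replicate 2 it was 1.07 (edgeR FDR 0.187). Fen1, the flap nuclease that acts just before it, had 7 and 1 counts in the wild type and 5 and 1 in the mutant libraries and was too low to test. An antisense gene, Gm10143, covers 78.8% of the exon length of Fen1 and had 1 or 2 counts in each library. Chaf1b (chromosome 16, 93883901 to 93906115, plus strand), the middle subunit of chromatin assembly factor 1, had the largest fold change of the 37 tested genes. It stood at 1.14 and 1.23 CPM in the wild type and at 5.03 and 4.93 CPM in the mutant libraries, from 20 and 24 against 126 and 67 counts. The log2 fold change of Chaf1b was 2.06 (SE 0.31, edgeR FDR 0.0141), and it was the 1 member still called without each library in turn. Chaf1a, the large subunit, was at 1.72 and 1.07 against 2.83 and 3.09 CPM and did not pass the test (1.09, SE 0.37, edgeR FDR 0.109). With each library left out in turn Chaf1a ranged from 0.74 to 1.44, and it was highest without wild type replicate 1. Its exons lie opposite those of Ubxn6 over 52.5% of their length.

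In nucleotide supply Rrm2 rose. Rrm2 (chromosome 12, 24708241 to 24714146, plus strand), the radical-bearing small subunit of ribonucleotide reductase that cells make in S phase, stood at 4.804 and 5.16 CPM in the wild type and at 11.4 and 15.5 CPM in the mutant libraries. The wild type libraries were close together, and both mutant libraries lay above them. Its log2 fold change was 1.43 (SE 0.24, edgeR FDR 0.0204), and without mutant replicate 2 it was 1.19 (edgeR FDR 0.101). Rrm1, the large subunit, was at 17.3 and 15.1 against 19.7 and 22.8 CPM (0.39, SE 0.20, edgeR FDR 0.238). Tyms, which makes thymidylate from deoxyuridylate, was at 2.23 and 1.38 CPM against 3.63 and 6.48 CPM. It had the highest log2 fold change of the nucleotide genes, 1.47 (SE 0.40), and did not pass the test (edgeR FDR 0.0653). Tk1, the thymidine kinase of the salvage route, was at 3.83 and 6.33 against 10.4 and 10.5 CPM (1.03, SE 0.28, edgeR FDR 0.0632). The log2 fold change of Tyms ranged from 1.003 to 1.84 with each library left out in turn, and was lowest without mutant replicate 2. That of Tk1 ranged from 0.708 to 1.41, lowest without wild type replicate 1 and highest without wild type replicate 2. Dut, the dUTPase that destroys dUTP, ran the other way, at 13.8 and 10.5 CPM in the wild type and 6.78 and 9.13 CPM in the mutant libraries. With library totals the Dut groups overlapped, at 11.1 and 9.87 CPM against 7.65 and 10.6 CPM (log2 fold change -0.21). On the TMM scale the log2 fold change of Dut was -0.62 (SE 0.25, edgeR FDR 0.157), and without wild type replicate 2 it fell by 0.86 (edgeR FDR 0.0135). With wild type replicate 1 left out it was -0.43 (edgeR FDR 0.261).

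Partners that work in 1 complex were compared within each library, which removes the library's scaling. Per kilobase, Rrm2 stood at 1.10 and 1.36 times Rrm1 in the wild type and at 2.30 and 2.70 times in the mutant libraries. Prim1 was at 0.672 and 0.802 times Prim2 against 1.46 and 1.63 times. With these lengths Prim1 was below Prim2 in both wild type libraries and above it in both mutant libraries. Which partner stands higher depends on the exon length used, which joins all annotated exons of a gene. Undivided, Prim1 had 96 and 66 counts and Prim2 had 101 and 62 in mutant replicates 1 and 2. The length used as divisor cancels when a ratio is compared between libraries. The trends with exon length that differed between libraries do not cancel, and their part in these ratios was not tested. Cdt1 stood at 0.110 and 0.102 times its inhibitor Gmnn in the wild type and at 0.480 and 0.481 times in the mutant libraries. The ratio of Chaf1b to Chaf1a was 1.26 and 2.16 against 3.36 and 3.02, and that of Pole to Pole2 was 0.671 and 0.823 against 1.06 and 1.02. Pola1 to Pola2 ran the other way, at 0.147 and 0.157 against 0.128 and 0.132. None of the 6 ratios overlapped between the genotypes, but the pairs were chosen after their values were seen. All but Pola1 to Pola2 set a gene that rose over a partner that did not pass the test, so this separation is no test. The ratios are given as a description, because the exact permutation test of 2 against 2 libraries cannot give a p below 0.333.

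**Figure D3:**
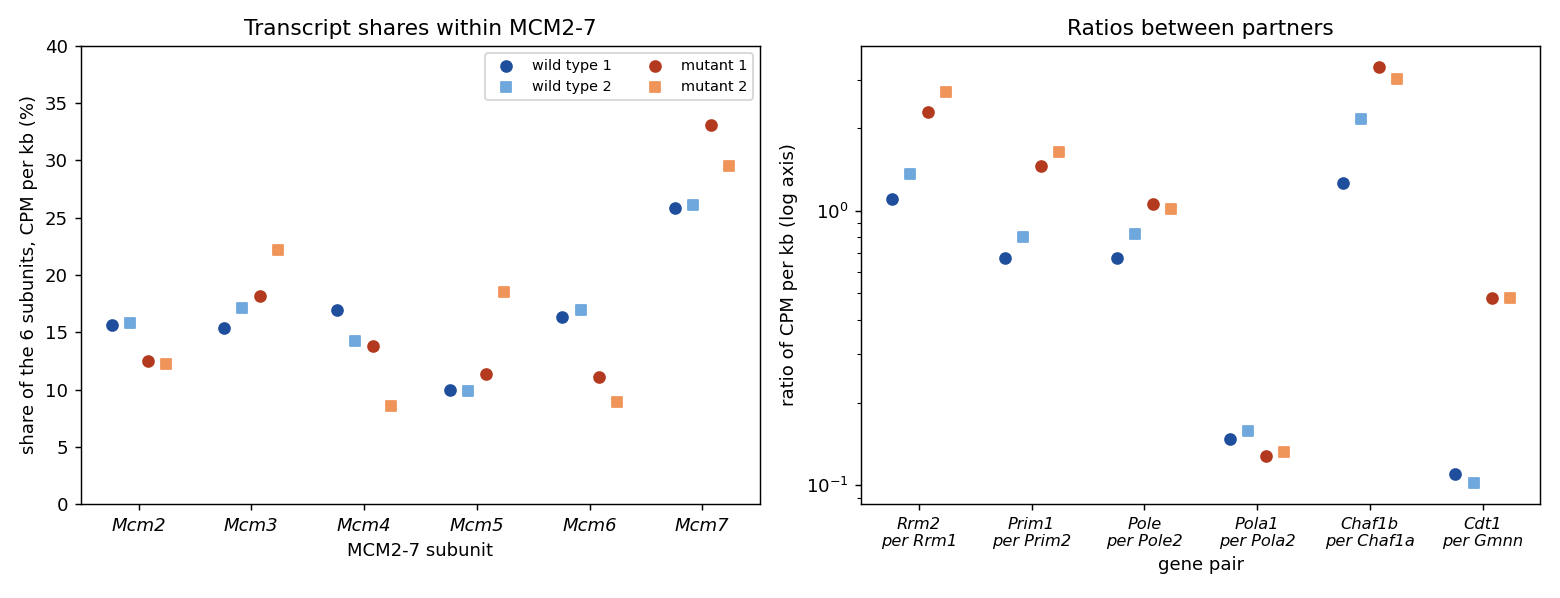
Left, share of each MCM2-7 gene in the 6 genes' summed CPM per kilobase of exon (percent), and right, ratio of 2 partner genes per kilobase on a log axis, with 1 point for each library. Mcm7 has the largest share in all 4 libraries, Cdt1 over Gmnn lies near 0.1 in both wild type libraries and near 0.48 in both mutant libraries, and Pola1 over Pola2 is the 1 ratio of the 6 that is lower in the mutant libraries.

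The calls fell more among the scarce members, a difference that was not tested. Over all genes tested 2.79% rose. That share was not split by level per kilobase, so whether the difference is particular to the members cannot be told. Ordered by mean level per kilobase, the upper 19 tested members held 3 that rose, with a median log2 fold change of 0.33, and the lower 18 held 6, with a median of 1.16. The most abundant in the wild type were Gins4 (10.7 CPM per kilobase), Pcna (10.6), Gmnn (7.03) and Dut (5.04), followed by Mcm7 (2.88). The first 4 of these had log2 fold changes from -0.73 to 0.09 and none was called. Orc1 (0.0705 CPM per kilobase), Fen1 (0.0932), Mcm10 (0.0999) and Cdc6 (0.106) were the scarcest.

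Of 66 further genes of the same pathways, 5 of the 65 tested rose and 1 fell, with a median log2 fold change of 0.22. Over all genes tested 2.79% rose and 4.58% fell. Among 44 tested licensing, firing and fork genes, 5 rose and 0 fell by edgeR's test. Uhrf1, which reads hemimethylated DNA behind the fork, was at 2.63 ± 0.972 CPM in the wild type and at 9.98 ± 2.44 CPM in the mutant libraries (SD, n = 2 each), a log2 fold change of 1.90 (edgeR FDR 0.0206). The checkpoint mediator Clspn (1.78, edgeR FDR 0.0291), the alternative clamp loader subunit Chtf18 (1.66, FDR 0.0343) and Dtl, which marks Cdt1 for destruction (1.96, FDR 0.0476), also rose. Ticrr, which helps to fire origins, was the fifth. The remaining origin recognition genes Orc2, Orc3, Orc4 and Orc5, which are not tied to S phase in the way Orc1 is, had log2 fold changes of -0.29, -0.28, -0.26 and 0.22, none passed, and the 3 negative values turned positive with library totals. Among 21 nucleotide genes that are not members, counts were near those shares: 0 rose and 1 fell. It was Gart, an enzyme of purine synthesis, at 26.8 ± 3.86 against 15.2 ± 0.901 CPM (SD, n = 2 each), a log2 fold change of -0.82 (edgeR FDR 0.0476). Of those that did not pass, the 2 taken for a high CPM, which is not divided by length and ranks no genes, were Paics, another purine enzyme (94.9 ± 14.2 against 56.3 ± 0.314 CPM, log2 fold change -0.75, edgeR FDR 0.0585), and the topoisomerase gene Top1 (65.2 ± 3.38 against 61.9 ± 4.76 CPM, -0.08). Leaving out a library changed several of these calls. Without mutant replicate 1 only Uhrf1 of the 5 was still called, and the FDR was 0.165 for Clspn, 0.108 for Chtf18, 0.261 for Dtl, 0.172 for Ticrr and 0.42 for Gart. Without mutant replicate 2 Uhrf1 and Clspn were still called, and the FDR was 0.219 for Chtf18, 0.159 for Dtl, 0.104 for Ticrr and 0.288 for Gart. Without wild type replicate 1 the FDR was 0.0599 for Dtl and 0.0542 for Ticrr. Paics passed without wild type replicate 1 (edgeR FDR 0.0203) and without wild type replicate 2 (edgeR FDR 0.000633).

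**Figure D4:**
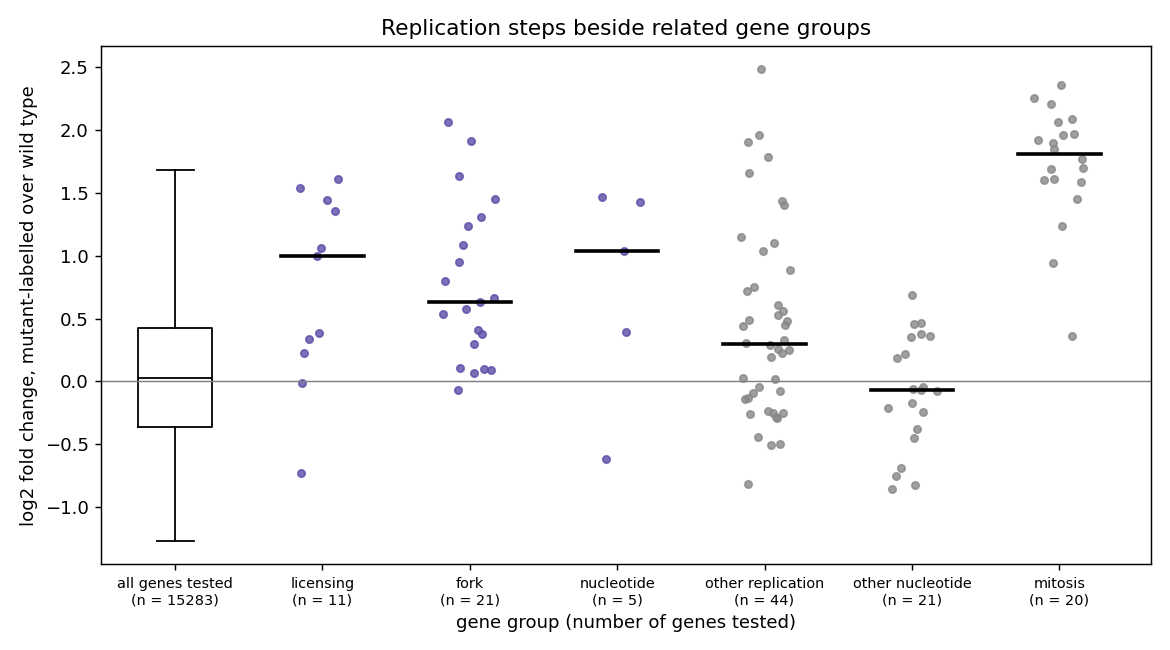
Log2 fold changes, mutant-labelled over wild type, of the licensing, fork and nucleotide genes, of further genes of the same pathways and of mitosis and proliferation genes, with 1 point for each gene and a bar at the median. The box beside them gives the quartiles and median (0.02) of all 15283 genes tested, with whiskers at the central 95%, and the mitosis genes have a median of 1.81.

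Genes of mitosis and proliferation, listed to set the replication genes beside other signs of cycling, were higher as well. Of these 17 of 20 rose, with a median log2 fold change of 1.81, where 2.79% of all genes tested rose. Mki67, which cycling cells express, stood at 7.43 and 13.2 CPM in the wild type and at 42.3 and 38.8 CPM in the mutant libraries (1.97, edgeR FDR 0.013). The genes with the smallest FDR were the cyclin Ccna2 (2.25, edgeR FDR 0.00624), Ube2c of the anaphase-promoting complex (1.92, 0.00769) and the spindle factor Tpx2 (2.06, 0.00815).

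Markers of the heart's cell types moved between the same libraries. All 10 cardiomyocyte markers had a negative log2 fold change (median -0.77), 1 of them, Pln, fell (-0.90, edgeR FDR 0.0443), and their summed level was 62844 to 70451 CPM in the wild type and 38228 to 40700 CPM in the mutant libraries. The 10 fibroblast markers summed to 4166 and 4678 CPM against 6327 and 6744 CPM, and Postn rose (1.38, edgeR FDR 0.0189). Of these 10, 9 had a positive log2 fold change and 1, Gsn, a negative one (-0.56). The 10 endothelial markers summed to 1870 and 2133 against 2605 and 2292 CPM, and Cldn5 rose (1.12, edgeR FDR 0.0257). Here too 9 were positive and 1, Fabp4, negative (-0.15). Without mutant replicate 2 the edgeR FDR was 0.474 for Pln, 0.184 for Postn and 0.137 for Cldn5, and without mutant replicate 1 it was 0.471 for Pln and 0.0961 for Cldn5. The 10 mural and 10 macrophage markers held 0 calls by edgeR, with median log2 fold changes of -0.04 and 0.07. The part of these cell types in the replication genes' values was not tested. Markers of blood cells differed in level: the 11 T cell and thymocyte markers summed to between 1.03 and 2.87 CPM with Rag2 at 0 in every library, and the 10 neutrophil markers to between 1.60 and 5.96 CPM with Mpo and Elane at 0 in every library. B cell markers summed to 9.89 and 12.4 against 15.95 and 20.2 CPM, and 0 of 5 tested were called. Erythroid markers summed to 713 and 510 CPM in the wild type and to 542 and 867 CPM in the mutant libraries, and overlapped. The 9 mesothelial markers mostly ran lower, with 7 negative and 2 positive log2 fold changes and a median of -0.67. Of the mesothelial markers Wt1 rose (0.99, edgeR FDR 0.0345, and 0.17 and 0.187 without mutant replicates 1 and 2), while the list's sum was 61.4 and 65.6 against 62.02 and 38.7 CPM.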

How the data were processed

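Whole heart RNA libraries (2 wild type, 2 Carm1 mutant, postnatal day 14) were prepared from total RNA by BGI, per the labels' protocols. The authors deposited raw read counts per gene identifier and library. FastQC, HISAT2 and the mm10 build are named in the submitters' processing notes, with no versions. No label or file header names the counting program, its annotation or its use of strand, so reads of overlapping genes may not be told apart. Of the 54752 identifiers, 54723 matched a gene of GENCODE M21 (GRCm38), which gave symbols, coordinates and exon lengths, and 29 did not. Column names matched the sample titles, and 0 further sample columns were left over. Genes were kept with edgeR's filterByExpr (edgeR 4.0.16, limma 3.58.1, R 4.3.3). Libraries were scaled by TMM, and the quasi-likelihood test was run over all 15283 genes kept, with genotype as its 1 term, 2 residual degrees of freedom and Benjamini-Hochberg adjustment. A gene was called at an FDR under 0.05. The common biological coefficient of variation was 0.186. Levels are CPM of the TMM-scaled library, and level comparisons between genes divide by GENCODE exon length in kilobases. That length joins the exons of all annotated transcripts of a gene, so such comparisons depend on it. Promoter words were searched in RefSeq's GRCm38.p6 table, both strands, with several entries of a gene counted together. The search for near copies used BLAST+ 2.17.0: 10 members had 13 pseudogene copies of at least 90% identity, which held 0 to 12 counts per library. The scripts were tested on simulated counts. Libraries of 11677604 to 22217442 counts put the limit that a count of 0 allows (3 counts) at 0.257 to 0.135 CPM, which covers counting error only.

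The members and the gene lists were chosen with earlier results of these data known. Members, Carm1, the 4 called pathway genes in each direction with the smallest FDR, the 2 not called with the highest mean CPM (not divided by length), Mki67 and 3 cycling genes, and up to 2 called markers of each list were named by rule. Ticrr, Orc2 to Orc5, the partner ratios and the 3 upstream windows printed were chosen after their values were seen. Alternatives were DESeq2 1.42.0 size factors, library totals, no filter, a filter of 1 CPM in 2 libraries, DESeq2's Wald test, limma-voom, a replicate block, a smooth correction for exon length, and leaving out each library.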

Additional observations from a re-analysis of the deposited data

How the results depend on the processing

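The 9 called genes stayed called in 10 of the 13 alternatives, including both fits with a block. DESeq2's size factors kept 7 (Cdt1 and Rfc3 were lost), with 1 licensing gene, and leaving out a mutant library kept 6 and 1. The cause was not tested, except that leaving out a library leaves 1 residual degree of freedom and assumes that the lone library varies like the others. Higher members numbered 15 with library totals, 14 with no filter on low counts and 13 each with DESeq2's Wald test, the replicate block and the length correction. Without 1 library in turn they ranged from 1 to 15, and lower members from 0 to 2. Licensing genes that rose numbered 4 with library totals, the Wald test, the replicate block and the length correction and 5 with no filter, and 0 to 5 without 1 library. For the fork the latter range was 1 to 9. Nucleotide genes that rose numbered 3 in each of those 5 alternatives, and 0 to 3 without 1 library.

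Of the other pathway genes, 11 rose and 0 fell with library totals, 10 and 3 with no filter, 11 and 4 with the length correction, 6 and 2 with the Wald test, and 6 and 0 with the replicate block; without 1 library 1 to 12 rose and 0 to 9 fell. Cycling genes that rose numbered 14 to 18 without 1 library. Over all genes, 1189 rose and 206 fell with library totals, 1169 and 1461 with no filter, 1061 and 1590 with the length correction, and 592 and 1117 with the Wald test, with 221 to 2553 and 156 to 3126 without 1 library. The members' median log2 fold change was 1.07 with library totals and 0.45 to 0.91 without 1 library. Carm1 was at -0.16 with library totals, passed with the length correction (-0.57) and ranged from -0.64 to -0.47 without 1 library.

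Same-numbered libraries deviated in opposite directions (r = -0.247 over genes). With 2 libraries of each genotype this value is the same for both numbers, so it cannot settle whether the numbers pair the libraries. The replicate block gave 580 higher and 642 lower genes. With the crossed pairing as a replicate block, an alternative added after seeing the data, 17 members rose and 2 fell (5 licensing, 9 fork and 3 nucleotide genes rose), 14 other pathway genes rose and 5 fell, 2037 genes rose and 2139 fell, and Carm1 passed (-0.54).

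Directions turned in 6 members, of which Gins2 had the largest log2 fold change as reported (0.38). Mcm6 was at 0.38 with library totals and 0.0033 with the 1 CPM filter, and from -0.063 to 0.0097 across the fits that left out 1 library. Gins4 was at 0.34 with library totals and 0.024 with the length correction, and from -0.37 to 0.22 across those fits. Rfc2 was at -0.018 with the length correction, and from -0.24 to 0.33 across those fits. The ranges across the same fits were -0.14 to 1.01 for Gins2, -0.13 to 0.27 for Pcna and -0.33 to 0.60 for Rfc4, each lowest with wild type replicate 2 left out. With library totals Top1 was at 0.32, Orc2 at 0.10, Orc3 at 0.11 and Orc4 at 0.13. Of the members' single fold changes, 404 kept direction and call, 50 gained and 13 lost a call, and 12 turned. Fen1 could be fitted only with no filter, and depth limits Orc1, Cdc6, Mcm10, Gins1, Gins3 and Pole2, which had fewer than 40 counts in at least 3 of the 4 libraries.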
